A study of Homo sapiens with 4 samples.

Results

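ISG15 is a small ubiquitin-like protein that interferon-treated cells attach to other proteins, and the 6 genes described here encode ISG15 and the enzymes that attach and remove it. They were taken by name from the table of 20323 genes: ISG15, the activating enzyme UBA7, the conjugating enzyme UBE2L6, the ligases HERC5 and HERC6, and the protease USP18. All 6 were found, and all 6 were among the 11810 genes with enough counts to be tested. RNA came from NK-92, an established human natural killer cell line grown in 100 IU/ml of interleukin 2, and was measured in 4 libraries. NK scramble cells had received a lentivirus with a scrambled short hairpin RNA, and NK shADAR1 cells a lentivirus with a hairpin against ADAR, the gene of the RNA-editing enzyme ADAR1. Each group had 2 libraries, which the series describes as independent biological replicates. The numbers in the titles of the shADAR1 libraries, which also serve as hairpin names elsewhere, are read here as replicate numbers. The authors state that NK shADAR1-2 cells were sequenced, so both knockdown libraries are read as replicates of the same hairpin. Both groups carried a lentiviral hairpin, and no untransduced NK-92 library was used here.

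Type I interferon induces the whole system: the receptor IFNAR activates a complex with STAT2 and IRF9 that binds the interferon-stimulated response element in target promoters. UBA7 activates ISG15, UBE2L6 carries it, and HERC5 is the main human ligase that transfers it to target proteins, many of them newly made. USP18 cuts ISG15 off again, and it also binds IFNAR2 and dampens interferon signaling. In lymphocytes, ISG15 is released as well and acts on the integrin LFA-1 to raise secretion of interferon gamma.

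The libraries held 37881704 to 39960491 estimated counts. Values below are CPM, estimated counts scaled to the library total after TMM normalization, unless FPKM, the deposited value per length, is named. NK scramble libraries are also called control and NK shADAR1 libraries knockdown, and values in pairs give replicate 1 and then replicate 2. ADAR itself stood at 655 and 682 CPM in the control libraries, and at 575 and 482 CPM in the knockdown libraries. Both knockdown libraries lay below both control libraries, as in 12.6% of all tested genes. The log2 fold change of ADAR, -0.34, had a 95% interval from -0.79 to 0.11, so the test did not separate the groups at this gene. The authors report its knockdown by qRT-PCR and western blot. All 9 NK cell markers were expressed, with summed FPKM of 3504 to 4040 in NK scramble and 3824 to 3986 in NK shADAR1 libraries. The markers CD3D, CD3G, CD4, CD8A and CD8B of T cells stayed under 1 FPKM in every library, as did all 3 myeloid and both epithelial markers, and hemoglobin HBB was listed at 0. Of 2 B cell markers, MS4A1 was listed at 0, and CD79A had 1.23 and 0.501 FPKM in the control libraries and 2.36 and 0.792 FPKM in the knockdown libraries. Over all tested genes, 0 passed an adjusted p of 0.05 with a fold change of at least 1.5 (0.00% of 11810, edgeR's quasi-likelihood test).

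The promoters of ISG15 and HERC5 are printed because they contain a run of interferon-response letters. RefSeq promoter windows (GRCh38.p14, 250 bases before to 50 after the start) were at hand for ISG15, UBE2L6, HERC5 and HERC6. The search covered the motif GAAANNGAAA and its longer form GAAANNGAAACT, which contains it, on both strands. Capitals mark every base inside a match, including matches that overlap each other.
ISG15: cctcggGAAAGGGAAACCGAAACTgaagcc
HERC5: cggaatcGAAAAGGAAAAGGAAACTgtaat
The ISG15 stretch is chr1:1013378-1013407 on the plus strand, 119 to 90 bases before the start that RefSeq gives. GENCODE release 29 has ISG15 begin further upstream, at 1001138, so by that annotation the stretch lies within the gene. The HERC5 stretch is chr4:88456987-88457016 on the minus strand, opposite to the gene, 132 to 103 bases before its RefSeq start. Each holds 1 match to the longer motif, which occurs in 96 of 35093 promoter windows (0.274%). The shorter motif matched at 2 positions in the ISG15 window and 3 in the HERC5 window, and is present in 3.58% of all windows. Neither of 2 UBE2L6 windows nor the HERC6 window held either motif.

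The modifier ISG15 was lower in both knockdown libraries. ISG15 (ENSG00000187608) lies on chromosome 1 from 1001138 to 1014540 on the plus strand, in GRCh38 by GENCODE release 29, the annotation used for each position of a gene here. It stood at 95.9 and 114 CPM in the control libraries, and at 68.1 and 32.9 CPM in the knockdown libraries. An antisense gene, AL645608.1, overlaps the annotated span of ISG15 over 1197 bases, introns included. Whether the 2 share counted bases was not tested, and the strand setting is not stated. The groups did not overlap, but the 2 knockdown libraries lay further apart than the control libraries, by 1.05 against 0.25 on the log2 scale. Means were 105 ± 13.1 and 50.5 ± 24.9 CPM (SD, n = 2 per group). The fitted level in NK shADAR1 was 48.1% of that in NK scramble, and the 95% interval of the log2 fold change ran from -1.74 to -0.38. The log2 fold change of -1.06 (standard error 0.31) had an unadjusted p of 0.00596 and an adjusted p of 1.00 over all tested genes in edgeR's quasi-likelihood test. In a bulk library, fewer cells with the transcript and less transcript per cell cannot be told apart. Each single library left out gave a value from -1.68 to -0.63. With NK shADAR1 replicate 1 left out ISG15 was at -1.68, and with NK shADAR1 replicate 2 left out at -0.63. It was at -1.18 without NK scramble replicate 1 and at -0.93 without NK scramble replicate 2. Such fits leave 1 library in a group, so only the fold change is given.

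USP18, the protease that removes ISG15, showed a difference of like size with less spread. USP18 (ENSG00000184979, chromosome 22, 18149899 to 18177397, plus strand) stood at 37.5 and 39.3 CPM in the control libraries, and at 21.6 and 15.5 CPM in the knockdown libraries. The control libraries were nearly equal, both knockdown libraries lay far below them, and replicate 2 was again the lower. The fitted log2 fold change was -1.05 with a standard error of 0.22 and a 95% interval from -1.54 to -0.55. Its unadjusted p of 0.000838 from edgeR was the 2nd smallest of all 11810 genes, and the adjusted p was 1.00. With NK scramble replicate 1 left out the log2 fold change was -1.08, and the other 3 single libraries left out gave -1.30 to -0.83. USP18 has a near copy in the genome: of the 50-base windows of its longest coding transcript, 23.4% occur in transcripts of other genes, among them USP41. How the authors assigned such reads is not given in the sources used here, so the USP18 counts are uncertain to that extent.

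**Figure D1:**
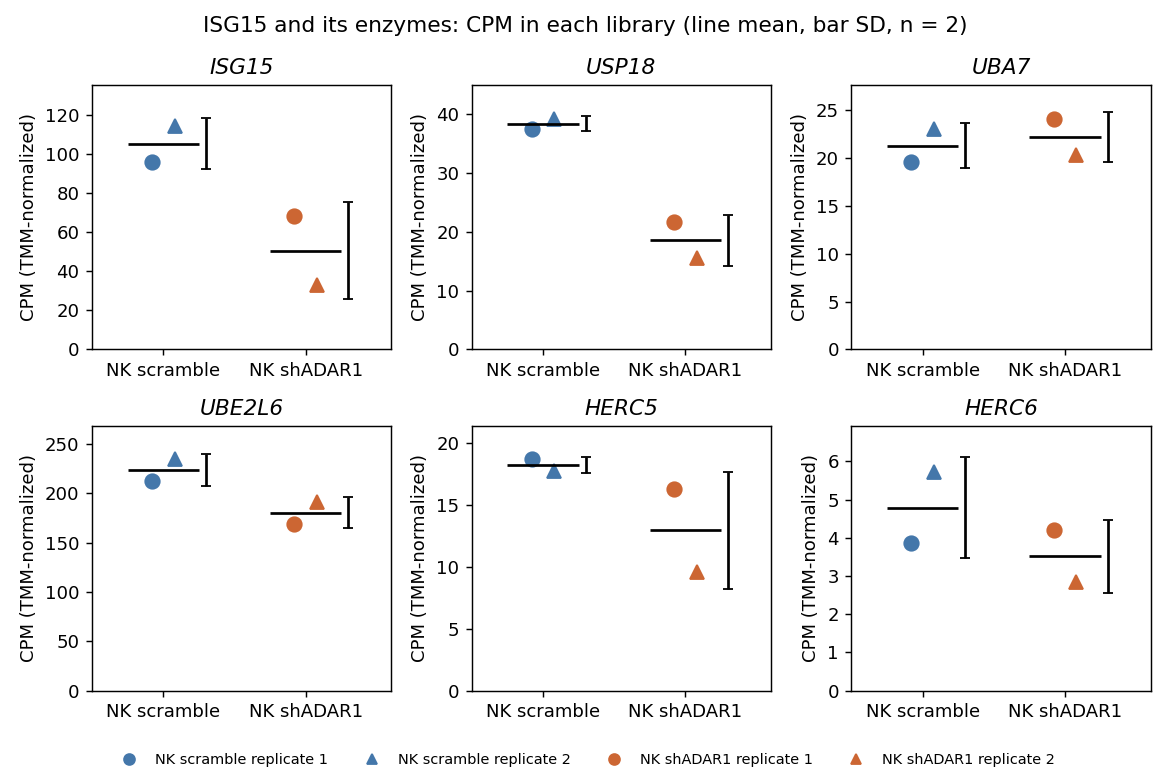
CPM (TMM-normalized, linear axes from 0) of ISG15, USP18, UBA7, UBE2L6, HERC5 and HERC6 in each of the 4 libraries, with blue for NK scramble, orange for NK shADAR1, circles for replicate 1 and triangles for replicate 2. Lines are means and bars SD over 2 libraries; for ISG15, USP18, UBE2L6 and HERC5 both orange points lie under both blue points, whereas UBA7 and HERC6 overlap.

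UBA7, the enzyme that activates ISG15 at the first step of the cascade, showed no such difference. UBA7 (ENSG00000182179, chromosome 3, 49805207 to 49813946, minus strand) stood at 19.6 and 23.0 CPM in the control libraries, and at 24.1 and 20.3 CPM in the knockdown libraries. The groups overlapped. The log2 fold change was 0.06 (95% interval -0.42 to 0.53, adjusted p = 1.00 from edgeR), so a fall of the size fitted for ISG15 or USP18 lay outside the interval of UBA7. Its sign turned to -0.05 without NK scramble replicate 1 and to -0.07 without NK shADAR1 replicate 1. The difference between UBA7 and the other genes was not itself tested.

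UBE2L6, the conjugating enzyme, was the most abundant of the 6 by FPKM together with ISG15. UBE2L6 (ENSG00000156587, chromosome 11, 57551656 to 57568284, minus strand) stood at 212 and 235 CPM in the control libraries, and at 169 and 192 CPM in the knockdown libraries. Both knockdown libraries lay below both controls, and here replicate 1, not replicate 2, was the lower knockdown library. The log2 fold change was -0.31 (standard error 0.19, 95% interval -0.74 to 0.12), which left the fitted level at 80.6% of the control, and the adjusted p from edgeR was 1.00. With each library left out in turn it stayed between -0.41 and -0.22.

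The 2 ligase genes lie next to each other on chromosome 4, with a gap of 14006 bases. HERC5 (ENSG00000138646, 88457117 to 88506163, plus strand) encodes the main human ISG15 ligase, which sits on ribosomes. It stood at 18.7 and 17.8 CPM in the control libraries, and at 16.3 and 9.59 CPM in the knockdown libraries. The groups did not overlap, yet replicate 1 of the knockdown was close to the controls, and the log2 fold change was -0.49 (standard error 0.27, 95% interval -1.09 to 0.10, adjusted p = 1.00 from edgeR). Leaving out NK shADAR1 replicate 2 gave -0.17, and leaving out replicate 1 gave -0.93.

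HERC6, a close relative that is the main ISG15 ligase in mice, was the least abundant of the 6. HERC6 (ENSG00000138642, 88378739 to 88443111, plus strand) stood at 3.86 and 5.73 CPM in the control libraries, and at 4.19 and 2.84 CPM in the knockdown libraries. Knockdown replicate 1 lay between the 2 controls, and the log2 fold change of -0.45 (standard error 0.36) had a 95% interval from -1.24 to 0.35 and an adjusted p of 1.00 from edgeR. Leaving out NK scramble replicate 2 gave -0.14, and leaving out NK shADAR1 replicate 1 gave -0.75.

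**Figure D2:**
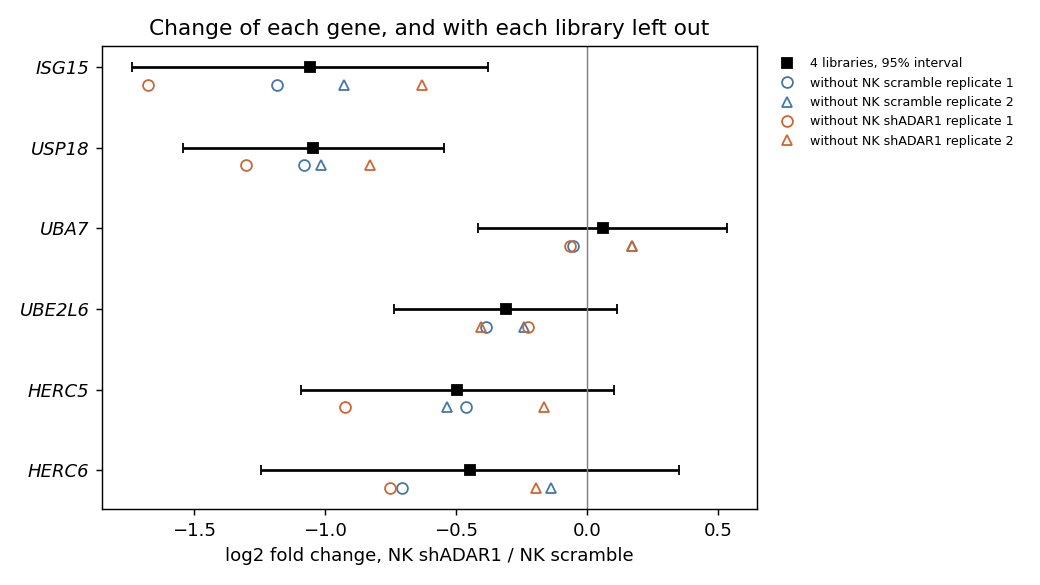
The log2 fold change (NK shADAR1 over NK scramble, horizontal axis) of each of the 6 genes, as black squares with 95% intervals from edgeR, and below each the value with 1 library left out. The intervals of ISG15 and USP18 lie wholly under 0, those of UBA7, UBE2L6, HERC5 and HERC6 include 0, and for ISG15 and HERC5 the orange symbols span the widest range.

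Over the 6 genes, 5 had a negative log2 fold change, as did 5905 of all 11810 tested genes. The median of the 6 was -0.47, against 0.00 over all tested genes. In 4 of the 6, both knockdown libraries lay below both control libraries, as in 12.6% of all tested genes. ISG15 and USP18 also had an unadjusted p under 0.05 with a lower level, as did 0.779% of all tested genes, and 0 of the 6 had an unadjusted p under 0.05 with a higher level, against 1.70%. None passed the adjusted threshold. Without NK shADAR1 replicate 1 the median of the 6 was -0.84, and without NK shADAR1 replicate 2 it was -0.30.

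Levels of different genes were compared per length, in FPKM. In NK scramble cells UBE2L6 (183 ± 10.3 FPKM, SD, n = 2) and ISG15 (164 ± 17.3) stood highest, with replicate values of 176 and 190 for UBE2L6 and 152 and 177 for ISG15 that overlap. USP18 followed at 20.6 ± 0.292, then UBA7 at 6.43 ± 0.597 and HERC5 at 5.24 ± 0.197, and HERC6 was lowest at 1.31 ± 0.400. By mean FPKM, UBE2L6 lay above 96.4% of tested genes, ISG15 above 95.8% and HERC6 above 18.6%. In NK shADAR1 cells UBE2L6 had 144 and 152 FPKM and ISG15 111 and 50.0 FPKM, so the 2 no longer overlapped.

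The balance of the 6 transcripts within a library was described by ratios of FPKM. The FPKM ratio of ISG15 to USP18, the modifier over its protease, was 7.47 and 8.50 in the control libraries, and 9.19 and 6.18 in the knockdown libraries. These overlapped. The ratio of ISG15 to UBA7 was 25.3 and 25.8 in the control libraries and 14.7 and 8.38 in the knockdown libraries, which did not overlap. The ratio of ISG15 to UBE2L6 was 0.865 and 0.927 in the control libraries, against 0.771 and 0.328 in the knockdown libraries. The ratio of ISG15 to HERC5 did not overlap between the groups either. The ratios of HERC5 to HERC6, and of UBA7 to the ubiquitin activating enzyme UBA1, did overlap. With so few libraries the smallest two-sided p of an exact permutation test is 0.333, so none was run on the ratios.

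**Figure D3:**
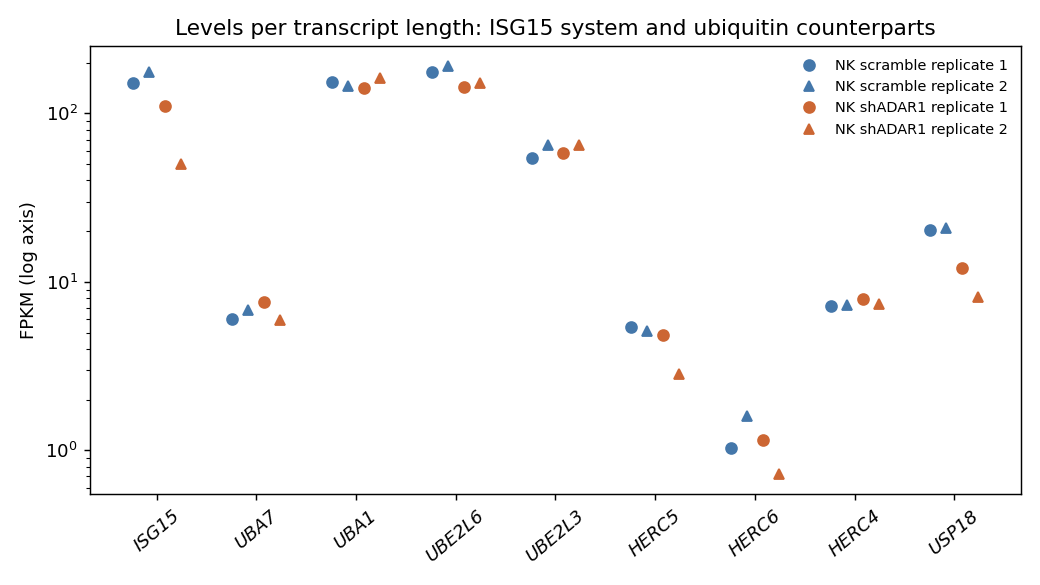
FPKM on a log axis of ISG15, UBA7, UBE2L6, HERC5, HERC6 and USP18 and of the ubiquitin genes that hold the like place (UBA1, UBE2L3, HERC4), with 1 point per library. The orange points of ISG15 and USP18 lie under the blue ones, and those of UBA1, UBE2L3 and HERC4 overlap them or lie above.

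Ubiquitin itself runs on a parallel set of enzymes, and their genes give a contrast within the same libraries. UBA1, the ubiquitin activating enzyme, stood at 153 and 146 FPKM in the control libraries and at 141 and 163 FPKM in the knockdown libraries, many times the level of UBA7. UBE2L3, the ubiquitin carrier most like UBE2L6 and known as UbcH7, stood at 54.3 and 65.0 FPKM in the control libraries and at 58.0 and 65.3 FPKM in the knockdown libraries, with a log2 fold change of -0.05 (95% interval -0.52 to 0.43) that ranged from -0.27 to 0.14 with a library left out. It was the lowest of the 8 tested genes of this list. The ratio of UBE2L6 to UBE2L3 was 3.24 and 2.93 in the control libraries and 2.48 and 2.33 in the knockdown libraries. The list's median log2 fold change was 0.05, and 7 of 8 were higher, as were 5905 of all 11810 tested genes. Some of the 7 lay near 0, such as UBA1 at 0.01 and HERC4 at 0.02.

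HERC1, a giant member of the HERC family, was the 1 gene of the ubiquitin list with an unadjusted p under 0.05 (0.0438, edgeR, adjusted p = 1.00). It stood at 69.7 and 70.3 CPM in the control libraries, and at 135 and 77.1 CPM in the knockdown libraries. The higher value came from 1 library, and the log2 fold change of 0.60 became 0.14 when NK shADAR1 replicate 1 was left out. HERC4 had a log2 fold change of 0.02, and HERC3, a relative of HERC5 and HERC6, was listed at 0 in every library.

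Of the other ISG15 ligases and of proteases reported to act on ISG15, 8 were tested and 0 had an unadjusted p under 0.05. The list's median log2 fold change was -0.04, with 5 lower and 3 higher. TRIM25, a ligase of ISG15 and of ubiquitin that acts on RIG-I, was the lowest. It stood at 214 and 223 CPM in the control libraries, and at 162 and 167 CPM in the knockdown libraries. Both groups were tight and did not overlap, and the log2 fold change of -0.41 (standard error 0.19) had an unadjusted p of 0.0509 and an adjusted p of 1.00 from edgeR. It lay between -0.44 and -0.39 when any 1 library was left out, a narrower range than for ISG15 or HERC5. At the other end USP24 stood at 83.4 and 89.4 CPM in the control libraries and at 135 and 81.1 CPM in the knockdown libraries. Its log2 fold change of 0.32 became -0.09 with NK shADAR1 replicate 1 left out.

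On the signaling side of USP18, 7 genes were tested, most of them of the interferon receptor, its kinases and its transcription complex. The list's median log2 fold change was -0.12, and 0 had an unadjusted p under 0.05 in edgeR. IRF9, the DNA-binding subunit of the complex that acts on the response element, was the lowest. It stood at 47.6 and 41.7 CPM in the control libraries, and at 38.1 and 13.3 CPM in the knockdown libraries. The knockdown libraries lay below the controls and far from each other, and the log2 fold change of -0.80 (standard error 0.38) had an adjusted p of 1.00 from edgeR. Without NK shADAR1 replicate 2 it was -0.23. STAT2, which brings USP18 to the receptor, had a log2 fold change of -0.19 with overlapping groups, and IFNAR2, the receptor chain that USP18 binds, had the highest value of the list, 0.11. Both signs rested on single libraries: STAT2 was at 0.14 with NK scramble replicate 2 left out, and IFNAR2 at -0.14 with NK shADAR1 replicate 2 left out.

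Among 15 genes whose proteins are known to be modified by ISG15, 10 had a negative log2 fold change, as did 5905 of all 11810 tested genes. The median of the 15 was -0.05. In 5 of the 15 both knockdown libraries lay below both controls, against 12.6% of all tested genes. In 1 of the 15 both lay above, against 13.3%. Besides MX1 and CHMP5, the 5 were EIF2AK2, IFIH1 and RIGI, with log2 fold changes of -0.64, -0.58 and -0.39. With NK shADAR1 replicate 2 left out these became -0.23, -0.21 and -0.12. MX1 and CHMP5 had an unadjusted p under 0.05 in edgeR with a lower level in NK shADAR1, as did 0.779% of all tested genes. MX1, an interferon-induced antiviral GTPase, stood at 565 and 519 CPM in the control libraries and at 293 and 60.8 CPM in the knockdown libraries, a log2 fold change of -1.62 (standard error 0.53). Its knockdown libraries were thus further apart than those of ISG15, and the value was -3.16 with NK shADAR1 replicate 1 left out and -0.89 with NK shADAR1 replicate 2 left out. CHMP5, a subunit of the membrane-budding ESCRT-III machinery, stood at 85.4 and 97.6 CPM in the control libraries and at 66.6 CPM in both knockdown libraries, a log2 fold change of -0.46 (standard error 0.20). Adjusted p-values from edgeR were 1.00 for both. PLCG1, a phospholipase of receptor signaling, had the highest value of the list, 0.23.

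The receptor and intracellular readers of ISG15 showed no call. ITGAL and ITGB2, the LFA-1 chains that sense released ISG15, had log2 fold changes of 0.20 and 0.03, and ITGAL was at 0.01 with NK shADAR1 replicate 1 left out. HDAC6 and SQSTM1, which bind ISG15 or its conjugates on the way to autophagy, had values of 0.10 and -0.21, and BAG3, at a few CPM, had the lowest value of the 5, -0.24, which turned to 0.40 when NK scramble replicate 1 was left out.

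**Figure D4:**
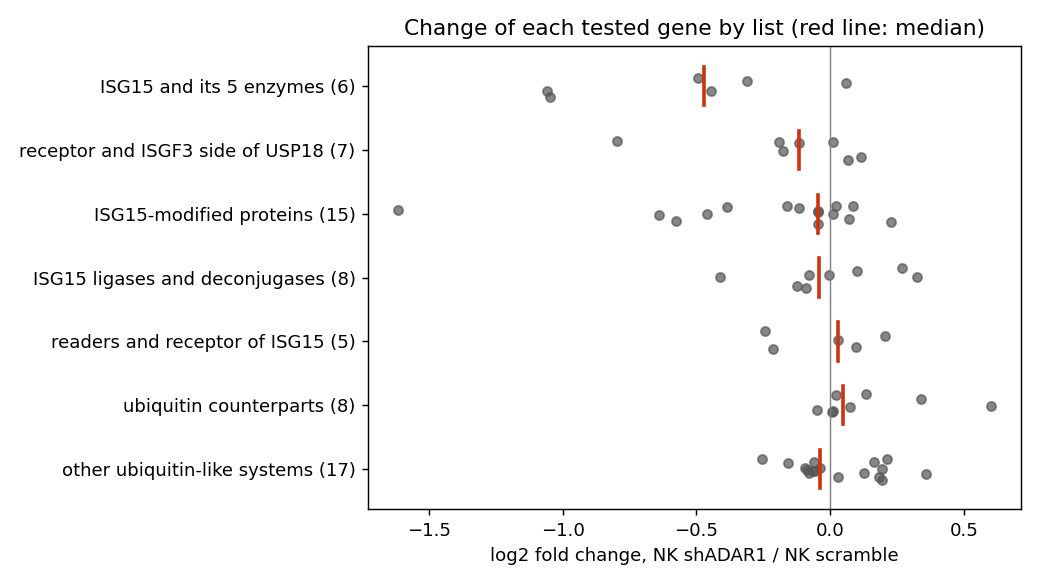
The log2 fold change (NK shADAR1 over NK scramble, horizontal axis) of each tested gene, by list, with the number of tested genes in brackets and the median as a red line. The median of ISG15 and its 5 enzymes lies at -0.47, those of the other 6 lists between -0.12 and 0.05.

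The genes whose levels ran most like each of the 6 over the 4 libraries were found by the root mean square difference of log2 CPM, each gene centered on its own mean, among genes with a mean of at least 5 CPM. For ISG15 they were OAS2, EPSTI1 and OAS1, with differences of 0.095, 0.13 and 0.20, where the median over 9303 genes was 0.71. USP18 was closest to ISG20 (0.014), then to OAS2 (0.15) and IFI35 (0.17), with a median of 0.58 over all genes. For HERC5 they were IFIH1 (0.072), OASL (0.11) and RIGI (0.11), against a median of 0.42. OAS1, OAS2, OASL, ISG20, IFIH1 and RIGI are known interferon-induced genes of antiviral defense. The genes nearest to UBA7 were XPO4 (0.0089), NSMAF and CHD8, against a median of 0.21. Those nearest to UBE2L6 were DDX31 (0.0077), ENSG00000284526 and SLC37A3, against 0.22. Those nearest to HERC6 were PLEKHA8 (0.092), ZCCHC2 and SLC12A2, against 0.39. The nearest of so many genes over 4 libraries lie far below the median by selection, so a small difference alone does not tie 2 genes together. Within the 6, ISG15 and USP18 were the closest pair (0.22), and ISG15 and UBA7 the most distant (0.67).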

How the data were processed

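Poly(A)-selected RNA of 4 NK-92 libraries was sequenced on an Illumina instrument. For each gene the authors deposited an estimated count, not always whole and not scaled for depth, and an FPKM value, scaled by transcript length and mapped fragments. Reads were filtered with fastp 0.18.0 per the submitters' processing notes. The aligner, counting program, build, strand setting and annotation are not given in the sources used here.

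Estimated counts were rounded. In R 4.3.3, edgeR 4.0.16 was used with filterByExpr (minimum count 10), TMM scaling and the quasi-likelihood test, without covariates, and Benjamini-Hochberg adjustment over 11810 genes. Calls needed a fold change of 1.5 or more with an adjusted p under 0.05. The standard error is the log2 fold change divided by the root of the F statistic, and 95% intervals use the t distribution of the fit. Lists are described by counts and medians. Alternatives were DESeq2 1.42.0, limma 3.58.1 on log2(FPKM + 0.1) and log2(FPKM + 1), other scalings and filters, unrounded counts, a replicate block and each library left out. Tests were checked on simulated counts with a common dispersion for all genes. That check does not show how they perform on genes whose replicates differ more.

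Genes named are the 6, list genes with an unadjusted p under 0.05 or at either end of their list, the flanking protein-coding genes, ADAR and the 3 nearest profiles. Other list genes (ITGB2, HDAC6, SQSTM1, STAT2, HERC4, UBA1, HERC3, NEDD8 and UBD) were chosen for their role after their values were seen, as were the cell type markers named. Among the ISG15-modified proteins, EIF2AK2, IFIH1 and RIGI were named because both knockdown libraries lay below both controls. The genes and lists were chosen with earlier results of these data known. Results for 5 genes of the lists are not reported here. Among the 6, depth makes counting error small for all but HERC6, so 2 libraries per group set the precision. Named genes at lower CPM than HERC6, such as BAG3, CD79A, SMTNL1, TUBA8 and INKA1, carry more counting error.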

Additional observations from a re-analysis of the deposited data

How the results depend on the processing

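Directions of ISG15, USP18, UBE2L6, HERC5 and HERC6 were negative under each of 13 alternatives, and the sign of UBA7 turned without NK scramble replicate 1 (-0.054) and without NK shADAR1 replicate 1 (-0.066), in a range of -0.066 to 0.17 with a library left out. The count of called genes was 0 in edgeR and stayed 0 under DESeq2, both limma fits and the other scalings, filters and rounding, with 293 genes at an unadjusted p under 0.05 in edgeR and 289 in DESeq2. It was 13 with the replicate block and 1 to 47 with a library left out, where the lone library of a group is assumed to vary like the others. USP18 was called with the replicate block (log2 fold change -1.06, adjusted p = 0.0416), and ISG15 was not (adjusted p = 0.0787), both from edgeR. Deviations of same-numbered libraries correlated at r = 0.31 across genes, but 2 pairs do not show that the numbers pair the samples. With a library left out, ISG15 ranged from -1.68 to -0.63, USP18 from -1.30 to -0.83, and the median of the 6 from -0.84 to -0.30. The median of the ligases and deconjugases was 0.061 and 0.058 under limma on log2(FPKM + 0.1) and log2(FPKM + 1). With a library left out it lay between -0.067 and 0.024, that of the receptor side of USP18 between -0.20 and -0.042, that of the ISG15-modified proteins between -0.22 and -0.015, that of the ubiquitin counterparts between 0.0081 and 0.14, that of the readers and receptor between 0.0081 and 0.15, and that of the other ubiquitin-like systems between -0.13 and 0.13. The cause of these shifts was not tested.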

Other observations

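Among 17 tested genes of the other ubiquitin-like systems (NEDD8, SUMO, UFM1 and URM1), 0 had an unadjusted p under 0.05 in edgeR, 9 were lower and 8 higher, with a median log2 fold change of -0.04. UFL1, the UFM1 ligase, was the highest at 0.36 (standard error 0.23; 0.13 with NK scramble replicate 2 left out) and UBE2M, a NEDD8 conjugating enzyme, the lowest at -0.26 (standard error 0.19). UBD, the ubiquitin-like modifier FAT10, was listed at 0 in every library. NEDD8 stood at 54.8 and 114 CPM in the control libraries, and at 68.6 and 124 CPM in the knockdown libraries. For NEDD8 replicate 2 was the higher library in each group, whereas ISG15 was higher in replicate 2 of NK scramble and lower in replicate 2 of NK shADAR1.

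The protein-coding genes that flank the 6 were looked at as well. SMTNL1, next to UBE2L6 at a gap of 1382 bases, stood at 2.10 and 0.611 CPM in the control libraries and at 0.585 and 0.321 CPM in the knockdown libraries. The fitted log2 difference was -1.57, with 0.67 as its standard error and an unadjusted p of 0.0406 in edgeR, and it was not called. These CPM values are low, and NK scramble replicate 1 lay apart from the other libraries. Log2 fold changes were 0.06 for AGRN beside ISG15, 0.55 for TUBA8 beside USP18, -0.37 for INKA1 and 0.06 for TRAIP beside UBA7, -0.22 for PYURF beside HERC5 and -0.40 for PPM1K beside HERC6. HES4, GGTLC3 and SERPING1 were listed but had too few counts to be tested.

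The length that turns the deposited counts of a gene into its FPKM was 637 bases for ISG15 in every library and 1858 bases for USP18. For HERC5 it was 3511 and 3428 bases in NK scramble replicates 1 and 2, and 3511 and 3271 bases in NK shADAR1 replicates 1 and 2. The FPKM and CPM of HERC5 therefore differ in how they compare the libraries. The ratio of the longest to the shortest length was 1.07 for HERC5 and also for HERC6. Of the tested genes, 56.0% had a smaller ratio than HERC5. The difference of HERC5 in mean log2 FPKM was -0.50, and the log2 fold change fitted to the counts was -0.49.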
